A study of Mus musculus with 6 samples.

Results

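Nodal and activin signalling is represented here by 9 of the 43309 genes in the count table. These were chosen by name from knowledge of the pathway, with earlier results of these data known. They are Nodal and Inhbb (ligands), Tdgf1 (co-receptor), Lefty1 and Lefty2 (secreted inhibitors), Smad2 and Smad3 (transducers), and Smad7 and Skil (inhibitors inside the cell). Mouse embryonic stem cells (mESCs) were the source of the 6 libraries, made with the TruSeq Stranded mRNA kit. The cells were of strain J1 (129SV) and were grown in serum medium on gelatin with no feeder cells. The control group was 3 clones labelled Zbtb24 wild-type (2lox/+) and the other group was 3 clones labelled Zbtb24 knockout (1lox/1lox), with 1 library per clone, so that all 6 clones carried at least 1 allele of Zbtb24 altered by loxP sites. Zbtb24 encodes a zinc finger protein with a BTB domain. The question addressed is how the RNA of the pathway differed between the groups.

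The libraries held 25042261 to 28838924 counted fragments. Zbtb24 itself had 510, 512 and 489 counts in the control libraries and 888, 925 and 1039 in those labelled knockout, which is 18.2 ± 0.415 against 36.1 ± 1.88 cpm (counts scaled to a common library total by TMM; SD, n = 3 clones per group throughout). This 1.99-fold rise goes against the label, and counts per gene do not show whether the part between the loxP sites was present, so the second group is called "labelled knockout" here. A count of 10 or more in any library was reached by 16823 genes, and 69.5% of these passed an FDR of 0.05 in edgeR's quasi-likelihood test, with 34.4% higher in the group labelled knockout and 35.2% lower. The common dispersion, a single value for all genes, was 0.000402, or about 2% variation beyond counting error, so that small differences passed the test. Single genes could vary more. Counting error included, the SD of the 9 genes was 0.79% (Tdgf1) to 4.1% (Inhbb) of the mean in the controls. In the libraries labelled knockout it was 2.2% (Tdgf1) to 9.3% (Smad3). Of 10 stem cell markers 8 were higher and 2 lower (Zfp42 and Dppa4). Their summed level, scaled by library totals alone and not by TMM, was 4602 to 4745 cpm in the controls. In the libraries labelled knockout this sum was 5964 to 6020 cpm.

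Nodal is a secreted ligand of the TGF-beta family that patterns the early embryo, and activins are related dimers of inhibin beta subunits. Both bind activin receptors, and Nodal, unlike activin, also needs the co-receptor Cripto, the product of Tdgf1. The receptors phosphorylate SMAD2 and SMAD3, which join SMAD4 and act on genes with partners such as FOXH1. Nodal, Lefty1, Lefty2 and Smad7 are themselves known targets of the pathway, and the LEFTY proteins and SMAD7 feed back on it as inhibitors. In mESCs the pathway is active through Nodal made by the cells themselves and is known for its part in the exit from the naive state and in the choice of mesendoderm.

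Lefty1 and Lefty2 are neighbouring paralogs, and how alike their sequences are bears on how well their counts can be separated. On GRCm38/mm10, Lefty2 lies at chr1:180893108-180899103 and Lefty1 at chr1:180935022-180938400, both on the plus strand with 35918 bases between them. Their coding sequences of 1104 bases each aligned without a gap and were identical at 1014 positions (91.8%), with a longest identical run of 140 bases. The following 120 bases of coding exon 1 (coding positions 46 to 165) are the least alike stretch of that length, and capitals mark the 34 bases that differ.

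Lefty1 (chr1:180935155-180935274, plus strand): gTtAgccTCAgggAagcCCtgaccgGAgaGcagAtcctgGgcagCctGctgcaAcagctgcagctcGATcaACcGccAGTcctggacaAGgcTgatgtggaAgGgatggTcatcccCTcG
Lefty2 (chr1:180893229-180893348, plus strand): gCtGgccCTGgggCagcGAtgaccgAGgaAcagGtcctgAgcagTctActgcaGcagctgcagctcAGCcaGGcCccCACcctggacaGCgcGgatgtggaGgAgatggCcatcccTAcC

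A fragment whose reads fall wholly in a stretch that is the same in both genes maps to both genes and was discarded by the authors' counting. Of the windows of 76 bases, the read length, along the transcript, 169 of 1545 in Lefty1 (10.9%) and 169 of 2398 in Lefty2 (7.05%) were found exactly in the other gene. The counts of both genes therefore miss some fragments, while fragments that cover a differing base can be assigned. In Tdgf1, 158 of 1857 windows (8.51%) were shared with the pseudogene Tdgf1-ps1 on chromosome 16, and in the other 6 genes 0 windows were shared with another gene.

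All 9 genes passed the count filter and the FDR of 0.05, against 69.5% of all genes tested. In the libraries labelled knockout 5 were higher (Inhbb, Smad7, Smad3, Tdgf1 and Smad2), against 34.4% of all genes, and 4 were lower (Skil, Nodal, Lefty1 and Lefty2), against 35.2%. Inhbb alone (1 of 9) also reached a log2 fold change of 1 in size, which 17.0% of all genes did. For 8 of the 9 genes, Lefty2 being the exception, the normalized values showed no overlap between groups, as was the case for 71.5% of all genes.

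**Figure D1:**
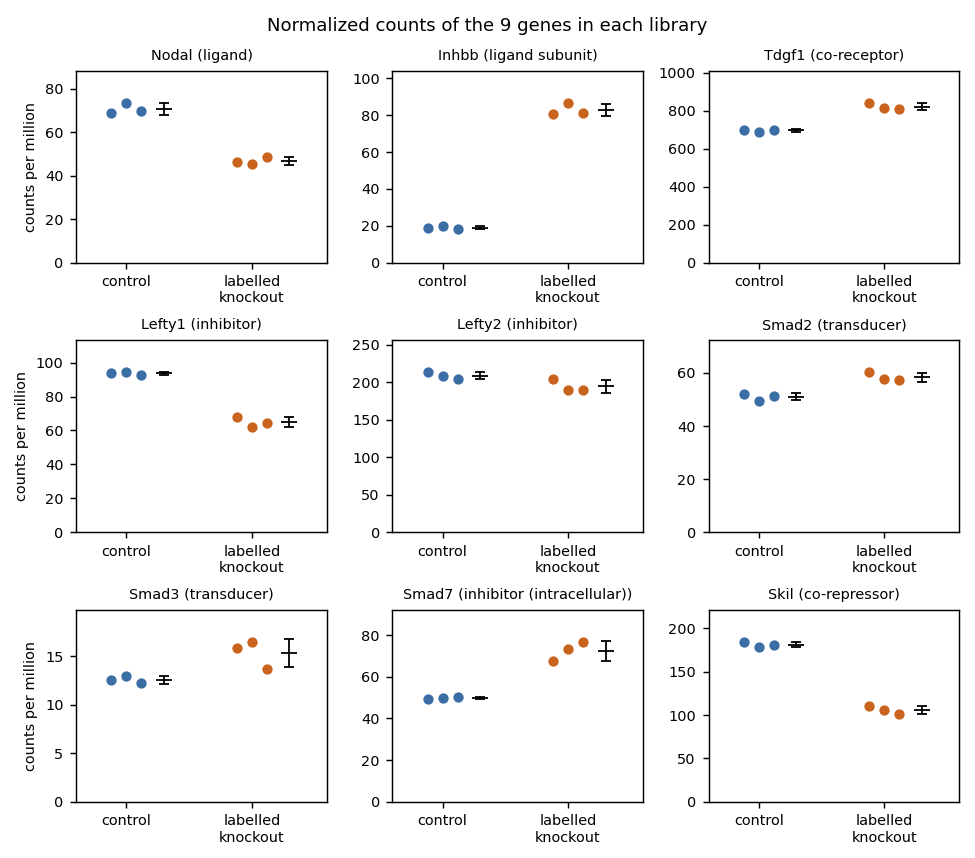
Normalized counts in cpm (vertical axes, each starting at 0) of the 9 genes in each library, with a point per library and the mean and SD of 3 libraries beside the points. Inhbb lies at 18.2 to 19.7 cpm in the control libraries and at 80.5 to 86.8 cpm in those labelled knockout, whereas the points of the groups overlap for Lefty2.

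Nodal RNA was lower in every library labelled knockout than in any control library. Nodal (ENSMUSG00000037171, chr10:61417972-61425338, plus strand) had 68.6, 73.6 and 69.6 cpm in the control libraries and 46.1, 45.3 and 48.8 cpm in those labelled knockout. The control libraries all lay above, with means of 70.6 ± 2.65 and 46.7 ± 1.87 cpm. It fell 1.51-fold, a log2 fold change of -0.59 (SE 0.037, edgeR adjusted p = 1.61e-19). Genes within 5 Mb of it had a median log2 fold change of 0.06, and 58 of these 62 neighbours had a higher value than Nodal.

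Inhbb, which encodes the inhibin beta B subunit found in activin B, changed in the opposite direction and by the most of the 9 genes. Inhbb (ENSMUSG00000037035, chr1:119415465-119422248, minus strand) had 526, 542 and 500 counts in the control libraries and 2102, 2138 and 2295 counts in those labelled knockout. The groups were far apart compared with their spread, at 18.9 ± 0.773 and 82.9 ± 3.46 cpm. It rose 4.39-fold, a log2 fold change of 2.13 (SE 0.043, edgeR adjusted p = 1.42e-39), above 99.4% of all genes in the background used for positions (tested genes averaging 10 counts or more).

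The co-receptor gene Tdgf1 was the most highly expressed of the 9 and changed little. Tdgf1 (ENSMUSG00000032494, chr9:110939603-110946158, minus strand) had 700.0, 689.3 and 696.7 cpm in the control libraries and 841.9, 815.6 and 806.5 cpm in those labelled knockout. All 3 libraries labelled knockout were above all 3 control libraries, and the rise was 1.18-fold (log2 fold change 0.24, SE 0.023, edgeR adjusted p = 2.42e-13). Its pseudogene Tdgf1-ps1, which was named after its values were seen, went the other way, from 926, 903 and 906 counts in the control libraries to 550, 478 and 487 counts (log2 fold change -0.78, SE 0.053, edgeR adjusted p = 3.83e-18). The pseudogene's counts are fragments assigned to it alone and are not part of the 18939 to 22769 counts of Tdgf1. Fragments that matched both were discarded, and the counts do not show how many these were.

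The secreted inhibitors Lefty1 and Lefty2 were both lower, Lefty1 by more. Lefty1 (ENSMUSG00000038793) had 94.1, 94.4 and 92.6 cpm in the control libraries and 68.2, 62.1 and 64.3 cpm in those labelled knockout, with no overlap between the groups. The fall was 1.44-fold (log2 fold change -0.53, SE 0.033, edgeR adjusted p = 1.54e-19). Lefty2 (ENSMUSG00000066652) had 213.2, 208.4 and 204.3 cpm in the control libraries and 204.7, 189.9 and 189.1 cpm in those labelled knockout. The highest library labelled knockout thus lay just above the lowest control library, and the fall was 1.07-fold (log2 fold change -0.10, SE 0.028, edgeR adjusted p = 0.00133), the least change among the 9 genes.

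Lefty2 accordingly made up more of the Lefty counts in the libraries labelled knockout. Its share of the summed raw counts of Lefty1 and Lefty2 was 69.4%, 68.8% and 68.8% in the control libraries, compared with 75.0%, 75.3% and 74.6% in the libraries labelled knockout. The groups did not overlap, and the means of 69.0% ± 0.318 and 75.0% ± 0.358 differed by 5.99 percentage points. The exact two-sided permutation test gave p = 0.1, the smallest value that 3 against 3 libraries allow.

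The receptor-regulated transducers Smad2 and Smad3 were both slightly higher. Smad2 (ENSMUSG00000024563, chr18:76241580-76310963, plus strand) had 52.0, 49.5 and 51.5 cpm in the control libraries and 60.3, 57.6 and 57.3 cpm in those labelled knockout, a 1.15-fold rise (log2 fold change 0.20, SE 0.036, edgeR adjusted p = 5.88e-06). Smad3 (ENSMUSG00000032402, chr9:63646767-63757994, minus strand) had the fewest counts of the 9, with 334 to 358 in the controls against 388 to 413 in the other group. Its levels of 12.5, 13.0 and 12.2 cpm and of 15.8, 16.5 and 13.7 cpm did not overlap, although the third library labelled knockout came close to the controls. Smad3 rose 1.22-fold (log2 fold change 0.28, SE 0.067, edgeR adjusted p = 2.33e-04).

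The balance between both SMAD genes was not shown to differ. The log2 ratio of Smad3 to Smad2 in FPKM (cpm per kb of exon) was -1.39, -1.26 and -1.42 in the control libraries, compared with -1.27, -1.14 and -1.40 in the libraries labelled knockout. These ranges overlap, and the difference of 0.09 had an exact two-sided permutation p of 0.5 (smallest possible 0.1).

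Of the inhibitors that act inside the cell, Smad7 was higher and Skil lower. Smad7, which blocks the receptors (ENSMUSG00000025880, chr18:75367529-75395935, plus strand), had 49.2, 49.9 and 50.1 cpm in the control libraries and 67.5, 73.3 and 76.9 cpm in those labelled knockout. The control libraries were nearly equal and the others spread more widely, at 72.6 ± 4.73 cpm, but every one of them was above the controls. The rise was 1.46-fold (log2 fold change 0.55, SE 0.038, edgeR adjusted p = 8.71e-18). Skil, which encodes the SMAD co-repressor SnoN (ENSMUSG00000027660, chr3:31095058-31122577, plus strand), had 184.7, 178.4 and 180.8 cpm in the control libraries and 110.6, 105.3 and 100.8 cpm in those labelled knockout. Skil fell 1.72-fold with no overlap (log2 fold change -0.78, SE 0.029, edgeR adjusted p = 2.98e-28), the largest fall of the 9 genes.

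Smad7 and the Lefty genes, all known targets and inhibitors of the pathway, therefore changed in opposite directions, and so did the ligand genes Nodal and Inhbb. Whether the differences lie in RNA per cell or in the share of cells that express a gene cannot be told apart in bulk libraries. When the dispersion of every gene was fixed at 0.04 in edgeR's exact test, 3 of the 9 genes (Inhbb, Skil and Nodal) were still called, and at 0.16 only Inhbb was. Leaving out any single library kept all 9 calls and their directions.

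Per length, the 9 genes spanned a wide range of levels. In the control libraries the order by FPKM was Tdgf1 (265.2 ± 2.11), Lefty2 (79.9 ± 1.7), Lefty1 (53.3 ± 0.565), Nodal (33.7 ± 1.26), Skil (18.7 ± 0.324), Smad7 (11.0 ± 0.104), Smad2 (5.81 ± 0.146), Inhbb (4.44 ± 0.182) and Smad3 (2.27 ± 0.0784). The ranges of all 8 neighbouring pairs in this order were apart. The co-receptor and the secreted proteins of the Nodal branch thus stood above the genes that act inside the cell, and Inhbb stood between the transducer genes.

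**Figure D2:**
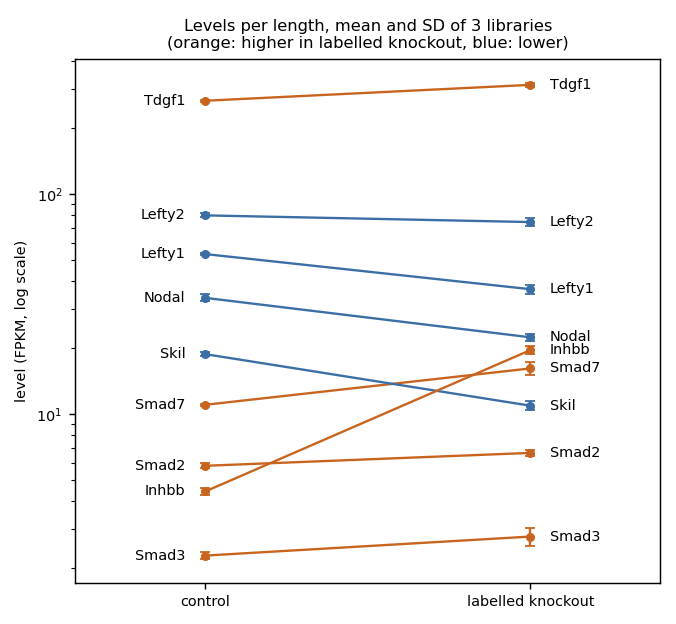
Level of the 9 genes in FPKM (vertical axis, log scale) in each group, with the mean and SD of 3 libraries and a line joining the groups for each gene. Inhbb crosses the lines of Smad2, Skil and Smad7 as it goes from 4.44 to 19.5 FPKM, and Skil and Smad7 cross each other.

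In the libraries labelled knockout the first 4 places were held by the same genes in the same order, at 313.2 ± 7.01 FPKM for Tdgf1, 74.5 ± 3.36 for Lefty2, 36.9 ± 1.75 for Lefty1 and 22.3 ± 0.893 for Nodal. Inhbb had moved up to the fifth place at 19.5 ± 0.813 FPKM, close below Nodal. Smad7 (16.1 ± 1.05 FPKM) now stood above Skil (10.9 ± 0.501 FPKM), and Smad2 (6.65 ± 0.188 FPKM) and Smad3 (2.77 ± 0.258 FPKM) came last. The ranges of all 8 neighbouring pairs were again apart, but with the length of the longest transcript in place of all exons Smad7 and Skil overlapped in this group.

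Inhbb, Lefty1 and Lefty2 lie on chromosome 1, which differed between the groups as a whole. Over its 980 genes the median log2 fold change was 0.50 (quartiles 0.04 and 0.77) and 76.7% of them had a positive value, whereas the medians of chromosomes 3, 9, 10 and 18, which hold the other members, were -0.04 to 0.02. Set against the median of its chromosome, the log2 fold change of Inhbb was 1.63 in place of 2.13. That of Lefty1 was -1.03 in place of -0.53, and that of Lefty2 was -0.60 in place of -0.10. Inhbb thus exceeded its chromosome by less, and both Lefty genes fell short of theirs by more, than their own fold changes show.

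The genes around them gave the same picture at short range. Within 5 Mb of Inhbb, the median over 23 genes was 0.65 on the log2 scale, and all 23 had a lower value than Inhbb. Within 5 Mb of Lefty1, 65 genes had a median of 0.56, and 61 of them had a higher value than Lefty1. Around Lefty2 the median was also 0.56, and 56 of 66 neighbours had a higher value than Lefty2. Lefty1 stood at the percentile 12.2 and Lefty2 at 20.0 of the fold changes on chromosome 1, and Inhbb stood at 98.4.

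**Figure D3:**
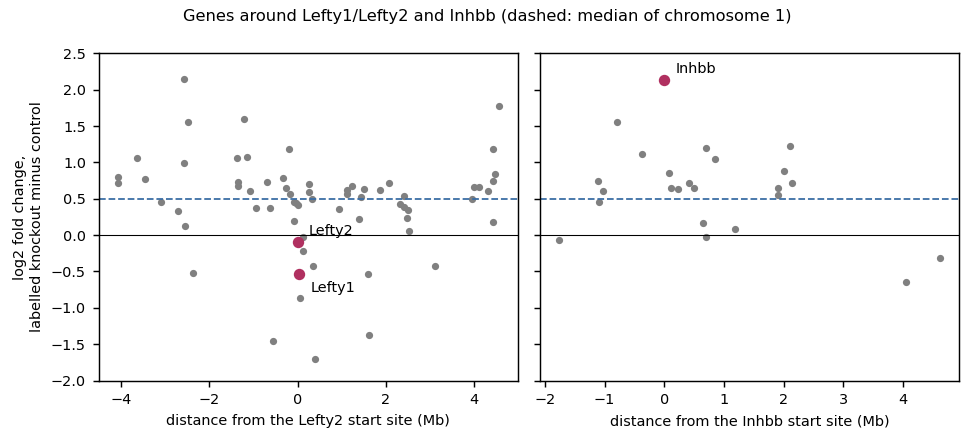
Log2 fold change (vertical axis, labelled knockout minus control) of tested genes averaging 10 counts or more against the distance in Mb from the start site of Lefty2 (left) and of Inhbb (right), with the dashed line at the chromosome 1 median of 0.50. Lefty1 and Lefty2 sit below most of their neighbours and Inhbb above all of its neighbours.

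On the other chromosomes the neighbours were centred near 0 and the members stood to one side of them. Within 5 Mb of Skil 36 of 40 genes had a higher value than Skil (median 0.04), and within 5 Mb of Smad7 40 of 46 genes had a lower value than Smad7 (median 0.01). Tdgf1 had a higher value than 116 of 146 neighbours (median -0.03). Smad2 had a higher value than 33 of 46 neighbours, and Smad3 than 63 of 85, so both lay between the quartiles of the genes around them.

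**Figure D4:**
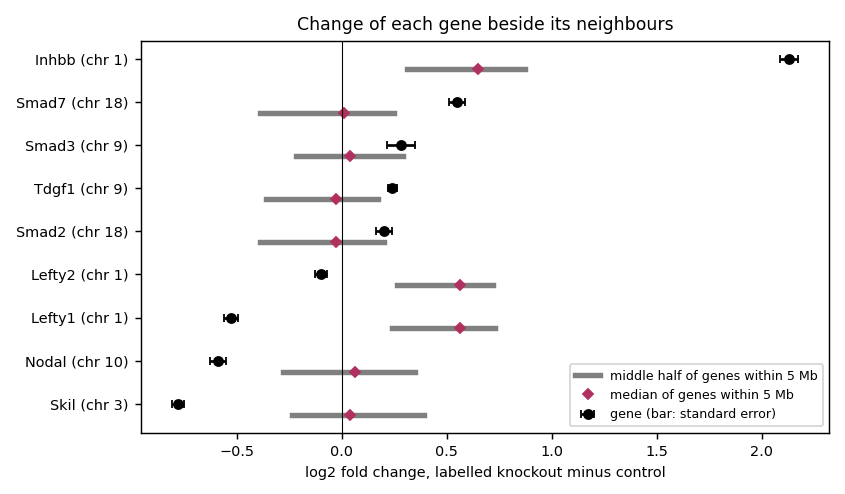
Log2 fold change (horizontal axis, labelled knockout minus control) of each of the 9 genes with its standard error (black), above the range between the quartiles (grey bar) and the median (diamond) of the tested genes within 5 Mb. The diamonds for the chromosome 1 genes lie at 0.56 to 0.65 and the others between -0.03 and 0.06.

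For 4 of the 9 genes (Nodal, Tdgf1, Inhbb and Smad3) the RefSeq promoter table for GRCm38.p6 gave a sequence from 250 bases before to 50 bases after the start site. Both strands were searched for CAGAC and GTCTAGAC (SMAD), TGTNNATT (FOXH1) and CAGGACCT (ZBTB24). Only the Tdgf1 promoter held any of these letters. Its matches lie together in the 34 bases from -127 to -94 relative to the start site (chr9:110946252-110946285, minus strand, 5′ to 3′), in which capitals mark CAGAC and, on each side of it, the FOXH1 letters read on the opposite strand.

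Tdgf1: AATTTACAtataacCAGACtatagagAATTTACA

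Matches of this kind are common: CAGAC was found in 49.6% of all 32851 promoters of that length and TGTNNATT in 12.2%, while CAGGACCT was found in 1.99% and GTCTAGAC in 0.213%. The match says only that these letters are present. The base composition of the 4 promoters differed widely, from 41.7% G and C with 7 CpG in Tdgf1, and 54% with 5 CpG in Nodal, to 64.3% with 23 CpG in Inhbb and 67.7% with 25 CpG in Smad3, against medians of 52.7% and 7 CpG over all promoters.

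Beyond the 9 genes, a list of 46 pathway genes was drawn up, of which 45 were in the annotation and 42 passed the count filter. In this list 14 genes were higher, 18 lower and 10 not called, and the median log2 fold change was -0.05, against 0.00 over all genes tested. Without the members 9 were higher, 14 lower and 10 not called of 33 tested (69.5% of all genes were called), with a median of -0.06. Of the 33, 9 were called with a log2 fold change of 1 or more in size, against 17.0% of all genes. Of these 8 were lower and 1 higher, and over all genes falls of this size were likewise more frequent, at 11.8% of genes tested, than rises, at 5.21%. Among the lower ones, Inhba, Cfc1 and Foxa2 reached the 10 counts of the filter only in control libraries, so that a lower value was favoured for them. Genes of the list at or under 3 counts in every library were Acvr1c, a type I receptor, and Cer1, a secreted inhibitor of Nodal.

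**Figure D5:**
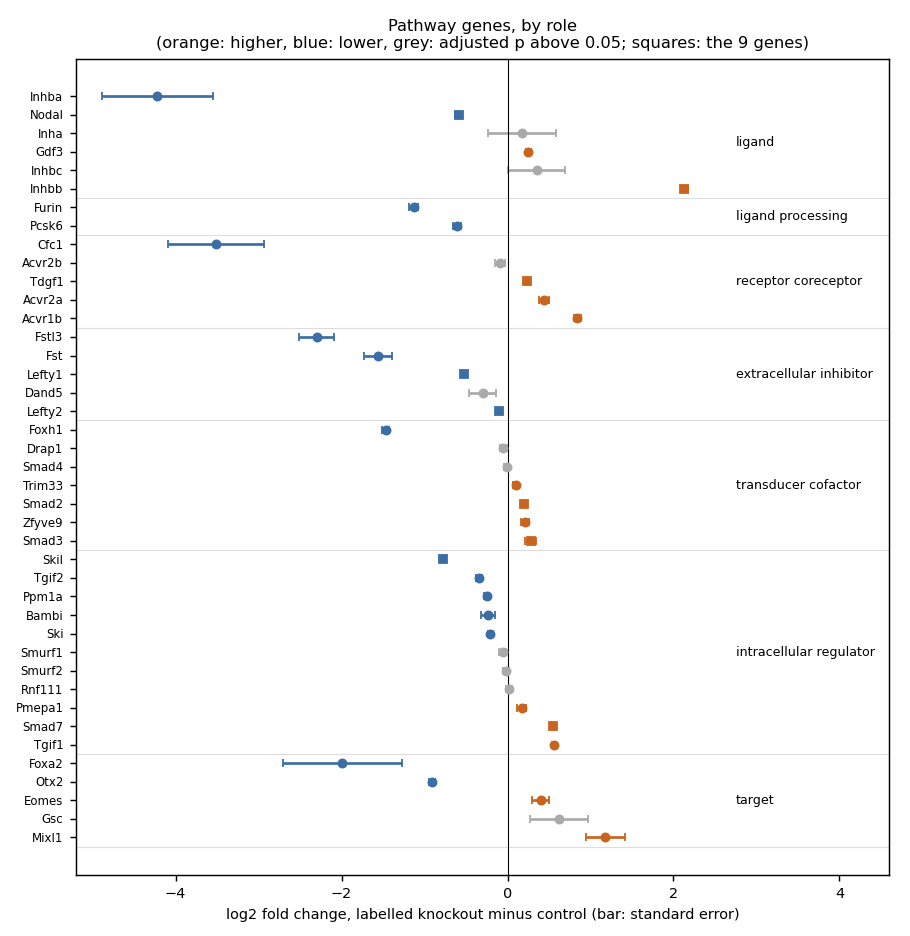
Log2 fold change (horizontal axis, labelled knockout minus control) with its standard error for the tested pathway genes reported here, grouped by role and coloured by call, with squares for the 9 members. Of the 5 secreted inhibitors 4 are lower and 0 higher (35.2% and 34.4% of all genes tested), while the ligands and the regulators inside the cell go both ways.

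Among the 6 ligand genes tested, 2 were higher and 2 lower, against 34.4% and 35.2% of all genes tested. Inhba, which encodes the other main activin subunit, had 20, 11 and 15 counts in the control libraries and 0, 1 and 1 in those labelled knockout. The summed counts of 46 and 2 give a ratio of 21.9 for control over labelled knockout (exact 95% counting interval 5.72 to 185.9, edgeR adjusted p = 2.90e-07). The counts of the subunit genes Inhba and Inhbb went in opposite directions, with Inhba close to the limit of detection even in the controls. Inhba passed the count filter only through control libraries, so that a lower value was favoured for it. Gdf3, a Nodal-related ligand whose name and values, like those of the other pathway genes with smaller changes, were chosen after the values were seen, rose from 102.2 ± 1.45 to 121.1 ± 4.23 cpm (log2 fold change 0.25, SE 0.030, edgeR adjusted p = 4.84e-10). Gdf3 lies on chromosome 6, where the median log2 fold change was 0.16 (quartiles -0.18 and 0.55).

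Both genes for proteases that cut the Nodal precursor were lower, against 35.2% of all genes tested. Furin fell from 30.5 ± 1.87 to 13.9 ± 0.179 cpm (log2 fold change -1.13, SE 0.055, edgeR adjusted p = 1.18e-23). Pcsk6 fell from 31.3 ± 0.449 to 20.5 ± 0.662 cpm (log2 fold change -0.61, SE 0.049, edgeR adjusted p = 9.42e-16).

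Of the 5 receptor and co-receptor genes tested, 3 were higher and 1 lower (34.4% and 35.2% of all genes tested). Acvr1b, the type I receptor ALK4, rose from 30.2 ± 0.809 to 54.1 ± 3.49 cpm (log2 fold change 0.84, SE 0.044, edgeR adjusted p = 1.16e-22). Of the type II receptor genes, Acvr2a rose (log2 fold change 0.44, SE 0.057, edgeR adjusted p = 2.83e-09) and Acvr2b had a log2 fold change of -0.09 (SE 0.064, edgeR adjusted p = 0.204). Cfc1, the paralog of Tdgf1 that encodes the co-receptor Cryptic, had 16, 19 and 17 counts in the control libraries and 0, 0 and 4 in those labelled knockout, a ratio of summed counts of 12.4 (exact 95% counting interval 4.55 to 47.0, edgeR adjusted p = 7.61e-07). All the Cfc1 counts of the group labelled knockout came from the third library, and without that library the fitted log2 fold change went from -3.51 to -7.08.

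The other secreted inhibitors were lower as well where they were called. Fst, which encodes the activin-binding follistatin, fell from 2.89 ± 0.21 to 0.973 ± 0.072 cpm (log2 fold change -1.56, SE 0.17, edgeR adjusted p = 3.60e-11). Fstl3, its relative, fell from 2.82 ± 0.585 to 0.566 ± 0.0937 cpm (log2 fold change -2.30, SE 0.21, edgeR adjusted p = 1.15e-13). With Lefty1 and Lefty2, the latter with overlapping groups, this made 4 of 5 tested genes of the group lower, against 35.2% of all genes tested. Dand5 had a log2 fold change of -0.30 (SE 0.16, edgeR adjusted p = 0.0875). The Dand5 value rested on single libraries, at -0.49 without the first library labelled knockout (edgeR adjusted p = 0.0125) and -0.17 without the third (edgeR adjusted p = 0.38), and it was called with library totals alone (-0.35, edgeR adjusted p = 0.0488). Dand5 lies on chromosome 8, where the median log2 fold change was -0.20.

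Inhba, Fst and Fstl3 were lower, and so were markers of fibroblasts, with only the direction compared. Fibroblasts are often used as feeder cells, although these cultures are described as free of feeders. All 7 tested markers of the 8 listed were lower in the libraries labelled knockout, against 35.2% of all genes, with a median log2 fold change of -3.17. Col3a1, Postn, Dcn and Twist2 reached the 10 counts of the filter only in control libraries, so that a lower value was favoured for them. The summed level of the listed markers, scaled by library totals alone, was 57.1 to 60.9 cpm in the controls. In the libraries labelled knockout this sum was 9.33 to 9.98 cpm. Col1a1 made up most of it in the controls (1095, 1126 and 1188 counts), and in the other group, where it had 92, 110 and 107 counts, Thy1 was the larger, at 4.89 ± 0.325 cpm against 3.93 ± 0.487 cpm for Col1a1. Among defining markers Lum was at 0 in every library and Postn had 7, 8 and 11 counts in the control libraries and 0 in the others. The part of such cells in the differences of Inhba, Fst, Fstl3 and the 9 members was not tested.

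Among transducers and cofactors, the largest change was that of Foxh1, which encodes the DNA-binding partner of SMAD2 and SMAD3. Foxh1 had 2233, 2272 and 2208 counts in the control libraries and 716, 697 and 886 in those labelled knockout. It fell 2.78-fold, from 80.8 ± 1.7 to 29.0 ± 2.08 cpm (log2 fold change -1.47, SE 0.040, edgeR adjusted p = 6.54e-34). The group thus held 1 lower and 4 higher genes of 7 (35.2% and 34.4% of all genes tested). Smad4, the common partner, had 74.4 ± 1.03 and 73.9 ± 2.19 cpm (log2 fold change -0.01, SE 0.033, edgeR adjusted p = 0.789).

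Of the 11 genes for regulators inside the cell, most of which inhibit the pathway, 3 were higher and 5 lower. Over all genes tested the shares were 34.4% and 35.2%. Smad7 and Tgif1, a co-repressor, were the largest rises, and Tgif1 went from 151.6 ± 2.62 to 224.2 ± 4.06 cpm (log2 fold change 0.56, SE 0.026, edgeR adjusted p = 1.62e-24). Ski, the closest relative of Skil, fell by less than Skil, from 118.0 ± 0.419 to 102.2 ± 1.81 cpm (log2 fold change -0.21, SE 0.029, edgeR adjusted p = 1.36e-08). The ubiquitin ligase genes Smurf1, Smurf2 and Rnf111, the last of which encodes Arkadia and promotes signalling by degrading SnoN and SMAD7, were not called, with log2 fold changes of -0.06, -0.02 and 0.02 (edgeR adjusted p = 0.193, 0.614 and 0.563). Smurf1 was called when library totals alone were used for scaling (log2 fold change -0.11, edgeR adjusted p = 0.0177).

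The known target genes outside the feedback loop went both ways, with 2 of 6 higher and 3 lower (34.4% and 35.2% of all genes). Otx2, a gene of the primed state and the anterior embryo, fell from 52.4 ± 0.955 to 27.8 ± 0.191 cpm (log2 fold change -0.91, SE 0.041, edgeR adjusted p = 3.68e-25). Foxa2, an endoderm gene, was near the limit of detection, with summed counts of 22 and 5 (ratio 4.18, exact 95% counting interval 1.55 to 14.1, edgeR adjusted p = 0.0126). Its call was lost without the third library labelled knockout (edgeR adjusted p = 0.0932). With 11, 3 and 8 counts in the controls, Foxa2 passed the filter through the first control library alone. Without that library it was not tested.

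Mixl1 and Eomes, genes of the primitive streak, were the targets that rose. Mixl1 rose from 16, 18 and 14 counts to 36, 30 and 38 (log2 fold change 1.18, SE 0.24, edgeR adjusted p = 2.99e-05), and it lies on chromosome 1, where the median was 0.50. Eomes rose from 4.68 ± 0.141 to 6.21 ± 0.811 cpm (log2 fold change 0.40, SE 0.10, edgeR adjusted p = 6.76e-04). The marker lists of these lineages, which also hold Mixl1, Eomes, Gsc and Foxa2, stayed at low summed levels, scaled by library totals alone. For streak and mesoderm the sums were 11.0 to 11.6 cpm in the controls against 11.1 to 12.2 cpm in the other group. For endoderm they were 12.0 to 13.2 against 10.6 to 12.8 cpm.

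Inhbb, the member with the largest change, was also compared with the profiles of 11114 genes averaging 100 counts or more. The closest 3, by the root mean square difference of centred log2(cpm + 1) values over the 6 libraries, were Sema5b (0.057), Ldhb (0.057) and Pop4 (0.063). Their log2 fold changes were between 2.05 (Pop4) and 2.26 (Sema5b), and they lie on chromosomes 16, 6 and 7. With groups this far apart, the likeness rests mainly on the size of the difference between groups.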

How the data were processed

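The authors removed rRNA reads with Bowtie2 2.1.0, mapped pairs of 76-base reads to mm10 with TopHat2 2.0.10 and counted fragments per GENCODE M4 gene on the sense strand with HTSeq 0.6.1, discarding fragments with multiple genes or locations. They deposited raw counts, which had not been normalized. Paralogs are under-counted where reads match both. Intervals cover counting error only and leave out variation between clones. Duplicates were not marked.

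Symbols and exons came from GENCODE M21 on the same build, which matched 42425 of 43309 identifiers. Genes that reached 10 counts in any library were tested with edgeR 4.0.16 (TMM, glmQLFit, glmQLFTest, R 4.3.3), with Benjamini-Hochberg adjustment over all 16823 genes at 0.05. The fit was tested on simulated data. The study names edgeR and this filter, and not which edgeR test. The cpm values of single genes are TMM-normalized, and FPKM divides them by the length of all exons of a gene. The summed cpm of the marker lists used library totals alone.

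The named genes were the 9 members, Zbtb24, pathway genes called with a log2 fold change of 1 or more in size, or at 3 counts or fewer in every library, and the 3 profiles nearest to the member that changed most. Members and lists were chosen with earlier results of these data known. The alternatives changed scaling, tool (DESeq2 1.42.0 among them), dispersion, filter, threshold, gene length, replicate block and libraries. One pathway gene that enters the counts of the list is not reported here by name or value.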

Additional observations from a re-analysis of the deposited data

How the results depend on the processing

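Of 180 values of the 9 members under the alternatives, 155 kept their direction and their side of the threshold, 22 lost the call, 3 moved with the chromosome median (Inhbb, Lefty1 and Lefty2) and 0 reversed. With the dispersion fixed at 0.04, the exact test called 3 members, 4342 genes in all and 15 pathway genes. Fixed at 0.16, it called 1, 1456 and 7. With a log2 fold change of 1 or more in size also required, the calls were 1, 2865 and 10. Each other alternative called all 9 members, 10326 (DESeq2) to 12073 (no filter) genes in all and 30 to 34 pathway genes. Without 1 library in turn, the calls were 9 members, 11059 to 11304 genes and 31 to 33 pathway genes. Reversed values were all of pathway genes that were not called: Inha at -0.07 without labelled knockout replicate 1 (up to 0.49 without 1 other library), Smad4 at 0.01 with TMM outside chromosome 1 and at 0.01 without labelled knockout replicate 1, Drap1 at 0.00 (down to -0.09) and Smurf2 at 0.00 (down to -0.04) without control replicate 3, and Rnf111 at -0.03 with library totals and at -0.01 without labelled knockout replicate 2 (up to 0.05). Pathway genes that gained a call were Dand5, Drap1 and Smurf1 with library totals alone, Dand5 without labelled knockout replicate 1, Drap1 without labelled knockout replicate 3 and Gsc without control replicate 3, where its log2 fold change was 1.21. The cause of these changes was not tested.

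The Lefty2 share differed by 5.81 to 6.17 percentage points without 1 library in turn, and by 6.89 points per kb of exon. The Smad3 to Smad2 ratio differed by 0.02 to 0.15 without 1 library in turn.

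Same-numbered libraries correlated at 0.00867 to 0.0553 in their deviations from the group means over 15514 genes, and 5 of 6 correlated best with their own number, a hint from the data and not from the design, so they were not taken as pairs. With the replicate block, 11801 genes, 9 members and 32 pathway genes were called, and the Lefty2 share differed by 5.99 points. Depth limited Smad3 most, with a counting error of up to 5.5% per library, and left Inhba, Cfc1 and Foxa2 at a few counts.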
